A study of Homo sapiens with 6 samples.

Results

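Cells make purine nucleotides, the A and G letters of RNA and DNA and the energy carriers ATP and GTP, by a chain of enzymes that ends in inosine monophosphate (IMP), from which one branch leads to GMP and another to AMP. Salvage enzymes return free bases to the same pool. The 10 genes described here are the de novo enzymes PPAT, GART, PFAS, PAICS, ADSL and ATIC, the guanine branch enzymes IMPDH1, IMPDH2 and GMPS, and the salvage enzyme HPRT1. They were found by symbol in a table of 57905 gene identifiers, and all 10 were among the 12452 genes expressed highly enough to be tested. The set was chosen by a measured value, the large fall of IMPDH1 between the groups compared here, so the change of IMPDH1 is given as a description without a test. The other 9 genes are in the set for their place in the pathway.

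A549, an established line of human lung adenocarcinoma cells, was transfected by lipid reagent with 25 nM of miR-19a in 3 samples or with 25 nM of a negative control microRNA, miR-NC, in 3 samples, and the harvest is given as 24 h. No sample without transfection is among the 6, and the labels do not name the arm of miR-19a. They also leave unsaid whether replicates came from separate cultures, and the p-values then reflect only sample-to-sample spread, part or all of which may be technical. RNA selected for poly(A) tails was sequenced in pairs of 150 bases, and total counts lay between 15699037 and 17957932 per library. The labelled cell type was checked against markers. Of 10 epithelial and A549 markers 9 were expressed above a mean FPKM (fragments scaled for exon length and library size) of 1, and their summed level was 5724 to 5783 FPKM in miR-NC and 5544 to 5612 in miR-19a. The exception, EPCAM, stayed at or below 0.93 FPKM. The summed level of 8 fibroblast markers was 1.74 to 2.05 FPKM in miR-NC and 3.03 to 3.7 in miR-19a (COL1A1 reached 2.76), that of 6 immune markers was 1.11 to 1.49 and 1.51 to 1.93 (CD3E was listed at 0 in every library), and that of 3 endothelial markers was at most 0.05. Of the epithelial markers 3 rose and 4 fell, and the 2 markers of other cells above that level, COL1A1 and CD14, both rose. The sums of the epithelial, fibroblast and immune lists moved with the groups, and their part in the results was not tested.

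A microRNA can lower messenger RNAs whose 3′ UTR pairs with its seed, bases 2 to 8 of the mature strand. The guide strand of miR-19a is shown first, with that of its close relative miR-19b, because the sites in the purine enzymes are defined by this seed (capitals). Both sequences are from RefSeq on GRCh38.p14, and the seeds are the same.
hsa-miR-19a-3p: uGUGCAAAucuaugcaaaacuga
hsa-miR-19b-3p: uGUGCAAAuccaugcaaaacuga

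Matches to this seed were looked for in the 3′ UTR of the transcript with the longest coding sequence (GENCODE v29 on GRCh38). They are the 8mer TTTGCACA, the 7mer-m8 TTTGCAC, the 7mer-A1 TTGCACA and the 6mer TTGCAC. Of the 10 purine enzymes, 4 had a match of 7 or 8 bases, IMPDH1, GMPS, HPRT1 and PAICS. Among 10427 tested genes with an annotated 3′ UTR, 18.7% had one. IMPDH1 is counted among these 4 enzymes although it was chosen for its fall, so the count is a description. The adenine branch enzyme ADSS2, from a list of other pathway genes, is shown with them, because with IMPDH1 it stands at the fork after IMP. The lists hold 10 tested genes with such a match, of which 3 fell, ADSS2 among them, 3 rose and 4 were not called. Only ADSS2 of these is shown. In the following stretches of messenger RNA, written as DNA from 5′ to 3′, the capitals mark the site.
IMPDH1, chr7:128392898-128392927, minus strand, a 7mer-m8 starting at base 92 of a 3′ UTR of 730 bases: gtggtccacagaTTTGCACtacgggttctc
IMPDH1, chr7:128392338-128392367, minus strand, an 8mer starting at base 651 of the same 3′ UTR: aaggctttaacTTTGCACActtgggatcac
HPRT1, chrX:134500243-134500272, plus strand, a 7mer-m8 starting at base 178 of 591: ctaaactgtttaTTTGCACtatgagcctat
PAICS, chr4:56460531-56460560, plus strand, a 7mer-m8 starting at base 1005 of 1823: aataaactctctTTTGCACcacagacttct
GMPS, chr3:155939787-155939816, plus strand, an 8mer starting at base 2106 of 6334: cactgtcttctTTTGCACAgcactttttgc
ADSS2, chr1:244409176-244409205, minus strand, an 8mer starting at base 392 of 1092: attaatgcagtTTTGCACAaatatttttac

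Every one of these sites lay within a single exon. IMPDH1 was the only one of the 10 with more than 1 site of 7 or 8 bases, which 3.96% of the tested genes with a 3′ UTR had. Its 7mer-m8 was in the 3′ UTR of 9 of 9 annotated coding transcripts and its 8mer in 6 of 9. The PAICS site was in 4 of 4 transcripts, and HPRT1 and ADSS2 have 1 annotated coding transcript each. The GMPS site was in 1 of 2, since the other transcript ends 18 bases after its stop codon. IMPDH2, whose 3′ UTR has 58 bases, PPAT, GART, PFAS, ADSL and ATIC had no match in the 3′ UTR used, not even a 6mer. GART and ADSL each had 1 match of 7 or more bases in the coding sequence, as did 14.4% of the tested genes.

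Of the 9 enzymes other than IMPDH1, 7 fell with miR-19a, 1 rose and 1 was not called. The 8 calls were made by edgeR's quasi-likelihood test at an adjusted p under 0.05, which called 48.4% of all tested genes. Of all tested genes 23.5% were lower and 24.9% were higher. The 3 miR-19a libraries lay wholly to one side of the 3 miR-NC libraries in 8 of the 9, and in 54.0% of all tested genes (TMM-scaled CPM). The median log2 fold change was -0.16 over the 9 genes other than IMPDH1 and -0.0045 over all tested genes. IMPDH1 was lower by 64.4% and HPRT1 fell by 34.5%, and the other 6 falls lay between 8.94% and 17.0%. Since RNA came from whole cultures, fewer cells with a high level and less RNA per cell cannot be told apart.

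**Figure D1:**
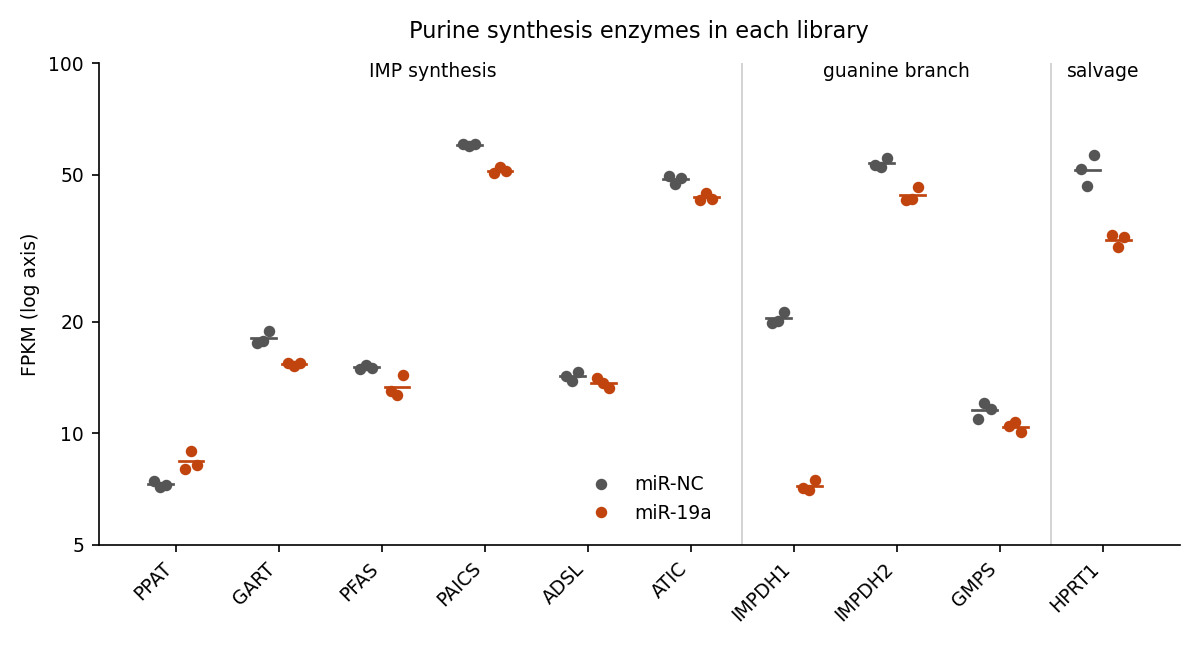
FPKM of the 10 purine synthesis enzymes in each of the 6 libraries, on a log axis, with points for libraries and lines for the means of 3. IMPDH1 shows the widest gap, with miR-NC at 19.89 to 21.24 and miR-19a at 7.0 to 7.45 FPKM, and PPAT is the one enzyme with miR-19a above miR-NC.

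IMPDH1 (ENSG00000106348; GRCh38 chr7:128392277-128410252, minus strand) encodes inosine monophosphate dehydrogenase 1. This enzyme oxidises IMP to XMP, the committed and rate-limiting step towards GTP. Its level was 19.89, 20.15 and 21.24 FPKM in miR-NC replicates 1 to 3 and 7.13, 7.0 and 7.45 FPKM in miR-19a replicates 1 to 3. Every control library stood far above every miR-19a library. The counts behind these levels were 1213, 1190 and 1221 in miR-NC and 426, 441 and 490 in miR-19a. The log2 fold change was -1.49 (SE 0.059), a level lower by 64.4%, and IMPDH1 ranked 34th among the 12452 genes by the size of its fall.

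IMPDH2 (ENSG00000178035; chr3:49024325-49029408, minus strand), the paralog that catalyses the same step and is known as the form raised in proliferating cells, changed much less. It was at 53.10, 52.28 and 55.54 FPKM in miR-NC and at 42.70, 42.95 and 46.41 FPKM in miR-19a. The groups did not overlap, and the fall was 0.27 on the log2 scale (SE 0.043, adjusted p = 2.9e-07), or 17.0%. Per length of exon IMPDH2 was the more abundant paralog in all 6 libraries.

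IMPDH1 made up 27.3%, 27.8% and 27.7% of the summed FPKM of both paralogs in the miR-NC libraries and 14.3%, 14.0% and 13.8% in the miR-19a libraries. The means were 27.6% ± 0.294 and 14.1% ± 0.240 (SD, n = 3). The summed level of both paralogs went from 74.1 ± 2.37 to 51.2 ± 2.29 FPKM (SD, n = 3). The spread within a group was small beside the gap in both quantities, which are given without a test because IMPDH1 was chosen for its change.

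**Figure D2:**
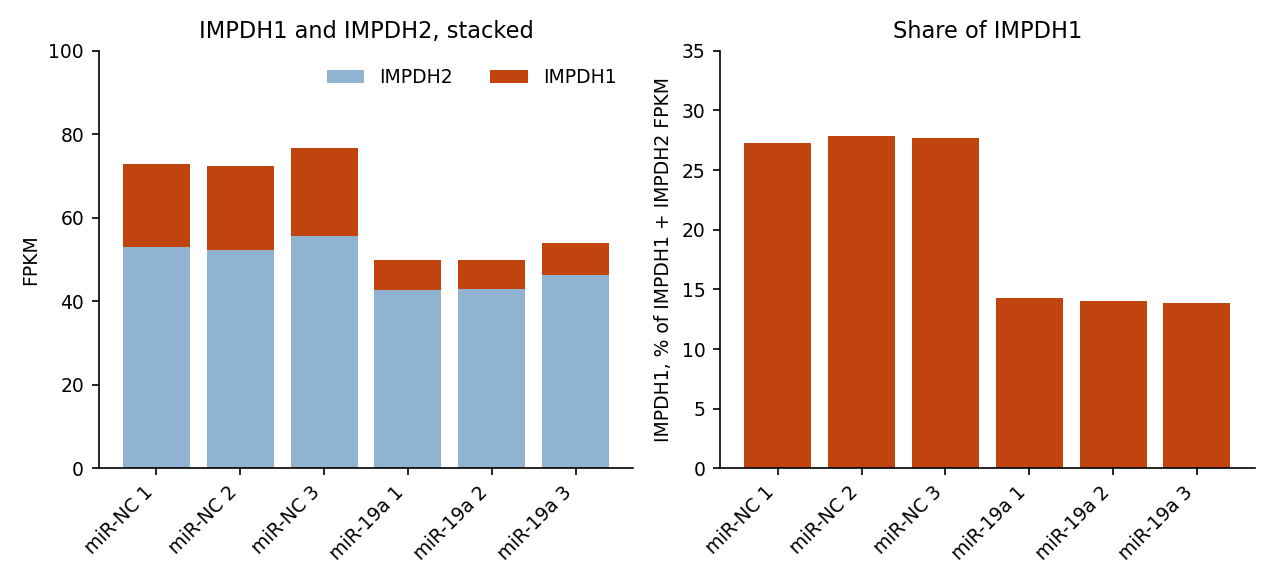
Left, FPKM of IMPDH2 (blue) and IMPDH1 (red) stacked for each library; right, IMPDH1 as a percent of the sum. The share of IMPDH1 lies at 27.3% to 27.8% in the miR-NC libraries and at 13.8% to 14.3% in the miR-19a libraries.

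The paralogs differ in sequence. The coding sequences of IMPDH1 and IMPDH2 were identical at 76.8% of 1545 aligned bases, and their longest shared run was 17 bases, far below the read length of 150. Of the 10 pseudogenes of IMPDH1 in the table, 7 were aligned to the IMPDH1 messenger RNA, with 90.6% to 93.0% of aligned bases identical and shared runs of up to 49 to 94 bases. Together the 10 held 39, 41 and 35 counts in miR-NC and 8, 16 and 20 in miR-19a, or 1.88% to 4.08% of the IMPDH1 count of the same library. These pseudogenes were singled out after their values were seen, and their reads may come in part from IMPDH1. With their counts added to IMPDH1 its log2 fold change was -1.49.

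GMPS (ENSG00000163655; chr3:155870536-155944026, plus strand), GMP synthetase, turns XMP into GMP. It was at 10.94, 12.10 and 11.61 FPKM in miR-NC and at 10.43, 10.73 and 10.07 FPKM in miR-19a. The groups came within 0.21 FPKM of each other without overlapping, and the fall was the smallest of the 7, at 0.14 on the log2 scale (SE 0.047, adjusted p = 0.014). In edgeR's test the call ended when the second miR-NC library was left out (-0.10, adjusted p = 0.099) and likewise when the third miR-19a library was (-0.11, adjusted p = 0.066). Its FPKM values divide the counts by an exon length of 8884 bases, which includes that long 3′ UTR.

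The next largest fall belonged to HPRT1 (ENSG00000165704; chrX:134460153-134520513, plus strand), hypoxanthine-guanine phosphoribosyltransferase, which salvages hypoxanthine to IMP and guanine to GMP and is in common use as a reference gene. Its levels were 51.66, 46.62 and 56.48 FPKM in miR-NC and 34.40, 31.94 and 33.81 FPKM in miR-19a. The control libraries were spread over nearly 10 FPKM, and all of them lay above every miR-19a library. The fall was 0.61 on the log2 scale (SE 0.055, adjusted p = 3.3e-15), or 34.5%, which ranked 529th among all falls. The mean went from 51.6 ± 4.93 to 33.4 ± 1.28 FPKM (SD, n = 3).

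The first enzymes of IMP synthesis did not move together. PPAT (ENSG00000128059; chr4:56393362-56435615, minus strand), the amidotransferase of the committed first step, rose. It was at 7.43, 7.14 and 7.26 FPKM in miR-NC and at 8.01, 8.97 and 8.21 FPKM in miR-19a, the lowest level of the 10 enzymes in miR-NC. All miR-19a libraries lay above the controls, with a rise of 0.22 on the log2 scale (SE 0.061, adjusted p = 0.0016).

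GART (ENSG00000159131; chr21:33503931-33543491, minus strand), a trifunctional enzyme of early steps, fell. Its levels were 17.58, 17.77 and 18.85 FPKM in miR-NC and 15.47, 15.23 and 15.46 FPKM in miR-19a. The fall was 0.22 on the log2 scale (SE 0.043, adjusted p = 1.9e-05), and the miR-19a libraries were close together. PFAS (ENSG00000178921; chr17:8247618-8270491, plus strand), which makes the amidine between the steps of GART, was at 14.90, 15.33 and 14.98 FPKM in miR-NC and at 13.02, 12.72 and 14.33 FPKM in miR-19a. The third miR-19a library came nearest to the controls. The fall was 0.16 (SE 0.048, adjusted p = 0.0046), and without miR-19a replicate 2 it no longer passed (-0.13, adjusted p = 0.056).

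PAICS (ENSG00000128050; chr4:56435741-56464579, plus strand) carries out the carboxylation and the succinocarboxamide step that follow. It was at 60.32, 59.70 and 60.59 FPKM in miR-NC, on an exon length of 4306 bases where GENCODE v29 has 7517, against 50.43, 52.28 and 51.09 FPKM in miR-19a. The controls differed by less than 1 FPKM, and the fall of 0.22 on the log2 scale (SE 0.038, adjusted p = 2.2e-06) was of the same size as that of GART. ATIC (ENSG00000138363; chr2:215311817-215349773, plus strand), the bifunctional enzyme that closes the ring to IMP, was at 49.63, 47.05 and 48.96 FPKM in miR-NC and at 42.75, 44.59 and 43.00 FPKM in miR-19a. It fell by 0.14 (SE 0.040, adjusted p = 0.0019).

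ADSL (ENSG00000239900; chr22:40346500-40390463, plus strand), adenylosuccinate lyase, works both in IMP synthesis and in the last step to AMP. It was the one enzyme not called, with 14.28, 13.88 and 14.60 FPKM in miR-NC and 14.08, 13.65 and 13.25 FPKM in miR-19a. The groups overlapped, and the log2 fold change was -0.05 (SE 0.048, adjusted p = 0.45).

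PPAT and PAICS, which moved in opposite directions, are neighbours on chromosome 4, transcribed away from each other. This pair was singled out after its values were seen and its ratio is a description. The level of PPAT over that of PAICS was 0.123, 0.120 and 0.120 in the miR-NC libraries and 0.159, 0.172 and 0.161 in the miR-19a libraries. The ratio was therefore higher in every miR-19a library, with a mean of 1.35 times that of the controls. On GRCh38.p14 the RefSeq start sites nearest to each other lie 137 bases apart. The bases between them are shown because both genes share them, on the plus strand from the PPAT side to the PAICS side, with matches to the GC box GGGCGG in capitals.
PPAT to PAICS, chr4:56435616-56435751: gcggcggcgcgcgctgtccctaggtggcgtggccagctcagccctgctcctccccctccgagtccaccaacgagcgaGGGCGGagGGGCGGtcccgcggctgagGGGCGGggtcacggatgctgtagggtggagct

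**Figure D3:**
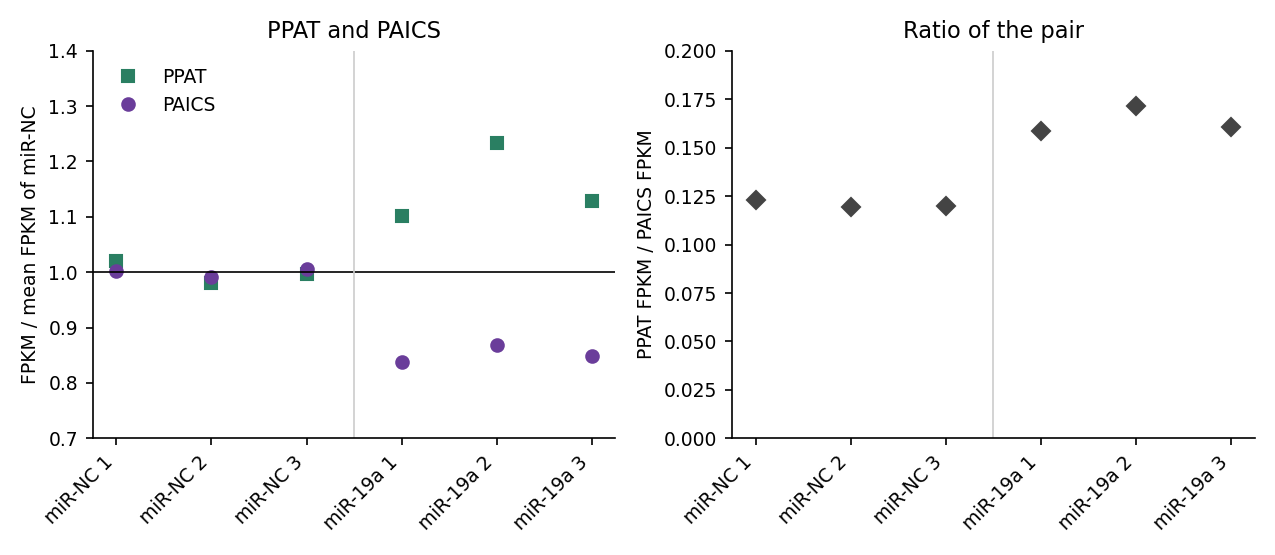
Left, FPKM of PPAT and PAICS in each library divided by the mean of the miR-NC libraries of the same gene; right, PPAT FPKM over PAICS FPKM. In the miR-19a libraries PPAT lies above and PAICS below the control mean, and the ratio is 0.159 to 0.172 against 0.120 to 0.123.

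The stretch holds 3 matches to the GC box, searched on both strands. At least 1 match is held by 15786 of 35116 RefSeq promoter windows, which at 300 bases are longer than this stretch. GC boxes were also in windows of the other enzymes: 4 each in IMPDH1, GMPS and HPRT1, 2 in ATIC and 1 in PFAS. GART had 3 or 0, depending on the window. The palindromic E-box CACGTG, a motif that MYC and related factors bind, was found once in the window around the PPAT start, with its first base 40 bases past the PAICS start. Of all windows 7.26% hold an E-box. Among the other enzymes ATIC had 2 in its window and GART, GMPS, HPRT1, IMPDH1 and PFAS had none, while IMPDH2 and ADSL are not in the promoter table used. MYC itself, a known activator of nucleotide synthesis genes, fell by 0.20 on the log2 scale (SE 0.042, adjusted p = 4.1e-05), from 49.0 ± 1.28 to 42.2 ± 0.756 FPKM (SD, n = 3). Its part in the results was not tested.

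The other genes of the pathway give the setting. In 9 lists of purine and related genes, 74 of 84 genes beside the 10 enzymes were tested, of which 20 fell, 15 rose and 39 were not called, with a median log2 fold change of -0.01. Of all 12452 tested genes 23.5% fell and 24.9% rose, so calls in these lists were about as common as elsewhere. The counts of each list below stand beside the same shares. The largest fall among those named belonged to ADSS2 (ENSG00000035687; chr1:244408494-244452134, minus strand), adenylosuccinate synthase 2, the first step from IMP towards AMP. It was at 28.75, 27.43 and 28.17 FPKM in miR-NC and at 15.21, 15.31 and 14.02 FPKM in miR-19a. The groups were far apart, and the fall was 0.91 on the log2 scale (SE 0.050, adjusted p = 7.4e-25), or 46.7%. Its muscle-type paralog ADSS1 lay under the expression filter at 0.93 ± 0.118 and 0.83 ± 0.0781 FPKM (SD, n = 3). Messenger RNAs of enzymes that draw on IMP were thus lower at both branches. The guanine side is IMPDH1, which was chosen for its fall, and IMPDH2, and the adenine side rests on ADSS2 alone. This joint reading was not tested.

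**Figure D4:**
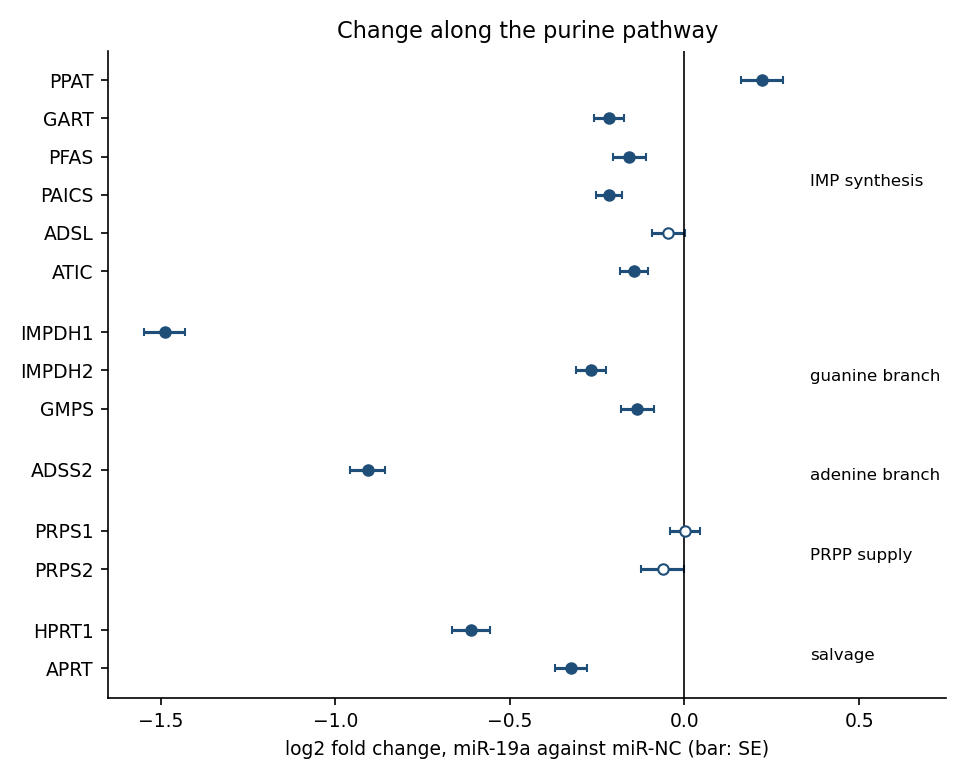
Log2 fold change with its standard error for the 10 enzymes, ADSS2, PRPS1, PRPS2 and APRT, ordered by role, with filled points for genes called at an adjusted p under 0.05 and IMPDH1 shown as a description. IMPDH1 (-1.49), ADSS2 (-0.91) and HPRT1 (-0.61) lie farthest to the left, and PPAT (0.22) is the one filled point to the right of 0.

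The supply of phosphoribosyl pyrophosphate (PRPP), the sugar phosphate on which purines are built, showed no called gene among 4 tested. The PRPP synthetases PRPS1 and PRPS2 had log2 fold changes of 0.002 (SE 0.043, adjusted p = 0.97) and -0.06 (SE 0.062, adjusted p = 0.43), and overlapping groups. Of 5 further salvage genes 1 fell, APRT, which recycles adenine, by 0.33 (SE 0.046, adjusted p = 1.4e-08), from 75.2 ± 5.46 to 59.4 ± 2.77 FPKM (SD, n = 3). The 4 not called were ADK, DCK, DGUOK and PNP. MTAP, which A549 is known to have lost by deletion, stayed at or below 0.11 FPKM.

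Among 11 tested genes of purine interconversion and breakdown 3 rose, 1 fell and 7 were not called. Xanthine dehydrogenase, XDH, which makes uric acid, fell by 0.68 (SE 0.088, adjusted p = 8.7e-10), from 4.27 ± 0.454 to 2.64 ± 0.357 FPKM (SD, n = 3). The ectonucleotidase NT5E rose by 0.42 (SE 0.047) and the AMP deaminase AMPD3 by 0.58 (SE 0.078). GUK1, the kinase that follows GMPS by turning GMP into GDP, rose by 0.35 (SE 0.047, adjusted p = 3.3e-09), from 18.1 ± 0.805 to 22.7 ± 0.535 FPKM (SD, n = 3). Of the other 11 nucleotide kinases 3 fell, among them NME4, a mitochondrial nucleoside diphosphate kinase, by 0.63 (SE 0.043), and AK5, an adenylate kinase, by 0.65 (SE 0.13). The other 8 kinases were not called. IMPDH1, IMPDH2 and GMPS, which act before GMP, were thus lower and GUK1 was higher. This order was put together after the values were seen and was not tested. IMPDH1 was chosen for its fall, and GUK1 was named as the 1 kinase of its list that rose.

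Folate enzymes carry the one-carbon units that GART and ATIC build into the ring. Of 19 tested genes of folate and serine supply 6 fell, 5 rose and 8 were not called, with a median log2 fold change of -0.04. Among all tested genes 23.5% fell and 24.9% rose. MTHFD1, which makes the formyl donor and carries a 7mer-m8 as its strongest site, fell by 0.20 (SE 0.040, adjusted p = 2.5e-05). MTRR, methionine synthase reductase with an 8mer, fell by 0.28 (SE 0.060). Methionine synthase itself, MTR, with a 7mer-A1, rose by 0.39 (SE 0.052), and the folate hydrolase GGH rose by 0.26 (SE 0.049).

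Of 12 genes of pyrimidine synthesis, salvage and interconversion 6 fell, 1 rose and 5 were not called, beside 23.5% lower and 24.9% higher among all tested genes. CAD, which starts the de novo route to pyrimidines, fell by 0.31 (SE 0.041, adjusted p = 2.4e-09). The salvage enzyme thymidine kinase, TK1, fell by 0.21 (SE 0.046), whereas the CTP synthase CTPS2 rose by 0.32 (SE 0.070). Of 3 tested nucleoside transporters, SLC29A1 fell by 0.14 (adjusted p = 0.028), and SLC29A2 and SLC29A3 rose by 0.32 (adjusted p = 0.011) and 0.21 (adjusted p = 0.048) in edgeR's test. The groups of SLC29A3 overlapped, and its call ended in 11 of 14 alternatives, that of SLC29A1 in 4 (DESeq2, no filter, and leaving out the first miR-NC or the second miR-19a library) and that of SLC29A2 in 2 (leaving out the third miR-NC or the third miR-19a library). Of 7 regulators MYC fell, 3 rose and 3 were not called. Among those that rose were the kinase RPS6KB1, which passes mTORC1 signals to nucleotide synthesis, at 0.20 (SE 0.046), and ANKRD9, which is known to lower IMPDH2 protein, at 0.32 (SE 0.090). RPS6KB1 has a 7mer-A1 and ANKRD9 a 7mer-m8. Of the 10 tested genes in these lists with a site of 7 or 8 bases, 3 fell (ADSS2, MTHFD1 and MTRR), 3 rose (MTR, RPS6KB1 and ANKRD9) and 4 were not called (ADA, AK4, CMPK1 and NT5C2).

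Beside all tested genes of the same site class, the purine enzymes were spread widely. Genes with an 8mer as their strongest site (n = 631) had a median log2 fold change of -0.15 and a 5th percentile of -0.89. IMPDH1 at -1.49 and ADSS2 at -0.91 lay below that percentile, and GMPS at -0.14 lay near the median. IMPDH1 was chosen for its large fall, so its low place follows from that choice and is a description. The 771 genes with a 7mer-m8 as their strongest site had a median of -0.06 and a 5th percentile of -0.64, with HPRT1 at -0.61 near the lower end and PAICS at -0.22 between the median and that end. The 7516 genes without a match had a median of 0.03. Of the 6 purine enzymes without a match, IMPDH2, GART, PFAS and ATIC fell by 0.14 to 0.27, ADSL was not called and PPAT rose. A match is a sequence in the annotated 3′ UTR, and no measurement of microRNA binding is among these data.

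**Figure D5:**
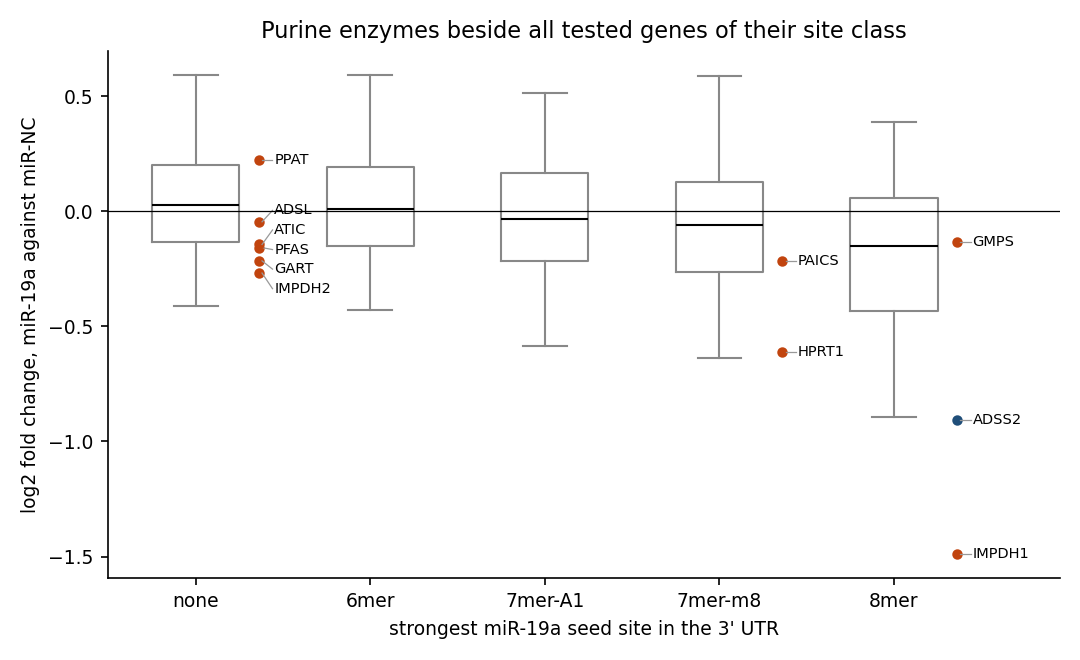
Log2 fold change of all tested genes by their strongest miR-19a seed match in the 3′ UTR (boxes: quartiles and median, whiskers: 5th to 95th percentile), with the 10 enzymes in red and ADSS2 in blue beside the box of their class. IMPDH1, which was chosen for its fall, and ADSS2 lie beyond the lower whisker of the 8mer class, and the enzymes without a match lie between -0.27 and 0.22.

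The 5 tested genes whose log2 CPM over the 6 libraries, taken as deviations from the gene's mean, lay nearest to IMPDH1 were E2F2, COQ10B, ZMYND11, SNX17 and UNC93B1, at Euclidean distances of 0.137 to 0.201. Their log2 fold changes were -1.51, -1.38, -1.62, -1.36 and -1.36, and a fall like that of IMPDH1 is fixed by the way they were picked. Each of the 5 had a 7mer-m8 or an 8mer as its strongest match in the 3′ UTR. So did 32 of the 72 genes with a 3′ UTR called with a log2 fold change of -1 or less (44.4%), and 13.4% of all tested genes with a 3′ UTR. Their levels in miR-NC ranged from 1.59 FPKM for E2F2 to 57.4 FPKM for SNX17. The distance is over 6 libraries that fall into 2 groups.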

How the data were processed

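The deposited table holds, for each gene, a raw count and an FPKM value per library; the count columns are whole numbers, and FPKM are named so per the file headers. Per the submitters' processing notes, bcl2fastq 2.17.1.14 was used. Which aligner, counter, annotation, build and strand setting were used was not given in the sources used here. For 8 of the 10 enzymes the exon length that the authors' FPKM imply matched the summed exons of GENCODE v29 within 1%. It was 42.7% shorter for PAICS and 15.3% shorter for ADSL, so levels compared between genes rest on the authors' lengths. Without strand, the exon bases shared with genes on the other strand (3.55% in GART, 3.35% in IMPDH2, 2.22% in PPAT) cannot be assigned.

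Counts of genes whose mean FPKM reached 1 were tested with edgeR 4.0.16 (R 4.3.3), by the two-sided quasi-likelihood test with TMM factors and Benjamini-Hochberg adjustment over 12452 genes at 0.05. Standard errors were derived from F, as |log2 fold change| divided by its square root. Levels in the text are the deposited FPKM. Alternatives were DESeq2 1.42.0, limma 3.58.1 on log2(FPKM + 1) or log2(FPKM + 0.1), median-of-ratios factors, library totals, other filters, a replicate block and each library left out. Chi-square per gene was 1.60 to 4.19 between libraries of the same group, more than sequencing the same library again would give. It cannot tell separate cultures from separate preparations of the same culture or RNA. The common coefficient of variation beyond counting noise was 0.035. Tested on simulated counts for the 12452 genes of this comparison, edgeR found 34 of 50 genes set to a 1.25-fold change, 45 at 1.5-fold, 47 at 2-fold and 49 at 4-fold. It made 9 false calls. The simulation gave all genes 1 common dispersion and changed few of them, whereas 48.4% were called in the data. These rates therefore check the code and do not measure how many real changes were found.

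The members and lists were chosen with earlier results of these data known. Genes named are the 10 enzymes, at most 2 rising and 2 falling genes of each list by adjusted p, the branch and supply genes ADSS1, ADSS2, PRPS1, PRPS2, APRT and MYC, and the 5 genes nearest to IMPDH1. Genes named as not called in a list, MTAP, and the pseudogenes were named after their values were seen. The exact permutation test planned for the share of IMPDH1 is not reported, because IMPDH1 was chosen for its change; with 3 samples against 3 it cannot go below 0.1. Sequences were aligned with Biopython 1.88.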

Additional observations from a re-analysis of the deposited data

How the results depend on the processing

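Of 126 values of the 9 enzymes other than IMPDH1 under the alternatives, 123 kept their direction and their side of the threshold, and the 3 others are the calls of GMPS and PFAS that ended when 1 library was left out. IMPDH1 ranged from -1.52 to -1.39, HPRT1 from -0.68 to -0.55 and PPAT from 0.17 to 0.25 on the log2 scale. Of these 9 enzymes 8 were called under every alternative that kept all libraries and 7 to 8 with 1 library left out. Adding the pseudogene counts to IMPDH1 was an alternative chosen after seeing the data. The difference in the share of IMPDH1, -13.5 percentage points, was -15.7 with TMM-scaled CPM, which are not scaled for length. Same-numbered libraries of the 2 groups did not deviate together over all tested genes (correlations of -0.0096, 0.012 and -0.046). Such deviations hold much counting noise, so these values cannot tell whether same-numbered libraries came from a shared culture. A fit with the replicate block called 5986 genes in place of 6023, and it called 8 of the 9 enzymes. PRPS1, which was not called, had a value below 0 in 7 alternatives: -0.013 and -0.014 with limma, -0.014 with library totals, -0.0012 with a mean FPKM of at least 5, and, with a library left out, 3 of 6 values below 0 in a range of -0.0228 to 0.0316. PRPS2, not called either, ranged from -0.103 to 0.0023 with a library left out. The call of SLC29A1 ended in 4 alternatives and that of SLC29A2 in 2. With 3 libraries a group, small changes such as that of ADSL (SE 0.048) cannot be told from none.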
